A study of Mus musculus with 3 samples.

Results

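A group of 10 genes of the platelet-derived growth factor (PDGF), fibroblast growth factor (FGF) and hepatocyte growth factor (HGF) systems was examined in NIH3T3 cells, an established line of mouse embryo fibroblasts. They were chosen by symbol, with earlier results of these data known. The group held 6 ligands (*Pdgfa*, *Pdgfb*, *Pdgfc*, *Fgf2*, *Fgf7* and *Hgf*) and 4 receptors (*Pdgfra*, *Pdgfrb*, *Fgfr1* and *Met*), and each had 1 row among the 15554 of the table. The cells were kept for 24 h without serum and then for 24 h with no added factor (CTRL), with 100 ng/mL of GDF15 protein (GDF15) or with 4 ng/mL of TGF-β protein (TGF-β). RNA of 3 samples was pooled within each treatment, and 1 library was sequenced per treatment. Therefore, no value has a replicate error, no test between treatments is possible, and every difference given here is one between 3 libraries of 1 cell line. This experiment of the study asked whether GDF15, a distant member of the TGF-β superfamily, acts on fibroblasts as TGF-β does.

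PDGF, FGF and HGF are secreted mitogens that bind receptor tyrosine kinases, and the activated receptors recruit adaptors that feed the Ras-MAP kinase and PI3 kinase pathways. PDGF-A and PDGF-C bind mainly the α receptor, PDGF-B binds both the α and the β receptor, and fibroblasts are classical targets of all of them. FGF7 (keratinocyte growth factor) and HGF are made by mesenchymal cells and are known for acting on neighbouring epithelia, which carry the IIIb form of FGFR2 and MET.

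Expression was measured as FPKM (fragments per kilobase of exon, scaled to the mapped fragments of the library), which corrects for transcript length, so that levels of different genes can be compared. A difference between libraries is given as the difference of log2(FPKM + 1), a scale that compresses the folds of weakly expressed genes. Beside it stands the local spread, a scaled median absolute deviation of the same difference over the rows nearest in mean expression. The spread describes how far genes of similar level differ between the same libraries, and is not an error of replicates. Rows were counted when the difference passed 1.5-fold, or 2-fold, the criterion of the study.

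Of the 10 genes, *Pdgfc* and *Fgf7* were higher by more than 1.5-fold in both stimulated libraries, and *Pdgfra* was lower by more than 1.5-fold with TGF-β. No member passed 2-fold in any comparison. The sequences just upstream of these 3 genes are shown because the genes separate into a pair that was higher with both factors and a receptor that was lower with TGF-β. Each is the 250 bases before the RefSeq start (GRCm38.p6, plus strand, 5′ to 3′), and the capitals mark CAGAC on either strand, the core of the Smad-binding element, which the transcription factors downstream of TGF-β receptors can bind.

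*Pdgfc*, chr3:81036166-81036415: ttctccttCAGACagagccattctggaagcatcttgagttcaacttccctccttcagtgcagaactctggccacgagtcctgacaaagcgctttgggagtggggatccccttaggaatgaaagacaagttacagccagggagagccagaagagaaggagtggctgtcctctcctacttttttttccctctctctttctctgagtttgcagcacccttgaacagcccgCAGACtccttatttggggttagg

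*Pdgfra*, chr5:75152001-75152250: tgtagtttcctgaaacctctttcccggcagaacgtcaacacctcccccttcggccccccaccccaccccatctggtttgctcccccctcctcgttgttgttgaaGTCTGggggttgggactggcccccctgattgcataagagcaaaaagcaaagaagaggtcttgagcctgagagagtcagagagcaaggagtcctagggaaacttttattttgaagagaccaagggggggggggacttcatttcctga

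*Fgf7*, chr2:126034408-126034657: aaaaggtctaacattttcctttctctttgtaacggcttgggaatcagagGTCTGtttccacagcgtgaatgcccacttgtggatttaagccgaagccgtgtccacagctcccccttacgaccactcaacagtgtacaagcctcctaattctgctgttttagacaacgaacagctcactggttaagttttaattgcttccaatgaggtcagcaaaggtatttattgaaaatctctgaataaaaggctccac

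The core occurred 2 times before *Pdgfc*, beginning 242 and 23 bases upstream, 1 time before *Pdgfra*, 146 bases upstream, and 1 time before *Fgf7*, 201 bases upstream. These letters are frequent, and 42.2% of the 32851 mouse promoter windows of the same length held at least 1 of them. A RefSeq window was at hand for 7 of the 10 genes, in 9 entries, and the core was present before *Fgf2*, *Hgf* and *Met* as well and absent from both entries of *Pdgfa*. No window of these 7 genes held TATAAA (12.4% of all windows), and only *Met* held TGANTCA, the AP-1 site (6.75%). CCAAT was found only before *Fgf7* (33.8%). GGGCGG, the GC box (32.7% of all windows and 50.7% of those of genes in the table), was found before *Pdgfa*, *Fgf2* and *Met* and not before *Pdgfc*, *Pdgfra*, *Fgf7* or *Hgf*. Both strands were searched for each motif, and a match describes the letters and not an occupied site.

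The libraries looked like fibroblasts by their markers. Of 10 fibroblast markers 9 averaged 1 FPKM or more (the exception, *Lum*, was listed at 0 or at most 0.0299), and their summed FPKM was 13716 in CTRL, 17853 with GDF15 and 16169 with TGF-β. None of the 6 epithelial markers reached 1 (summed 0.27 to 0.73, *Epcam* and *Cldn4* at 0), and none of the 4 endothelial markers did (0.25 to 0.33). Of 4 immune markers 2 reached 1, *Cd68* and *Lyz2* (summed 5.91 to 7.47, *Ptprc* at most 0.148), and of 4 mural cell markers only *Cspg4* (summed 61.4 to 88.4). The part of these marker levels in the differences of the mitogen genes was not tested. *Ctgf*, a classical TGF-β target, was at 9.03, 41.3 and 77.3 FPKM in CTRL, GDF15 and TGF-β, and *Acta2*, *Tagln* and *Postn* were in the same order (20.4, 73.6 and 96.1; 2.20, 8.27 and 13.8; 0.730, 4.73 and 10.0), as was the inhibitory Smad, *Smad7* (2.58, 3.28 and 4.36). Depths estimated from the spacing of low values were 18500000, 21600000 and 17600000 fragments.

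**Figure D1:**
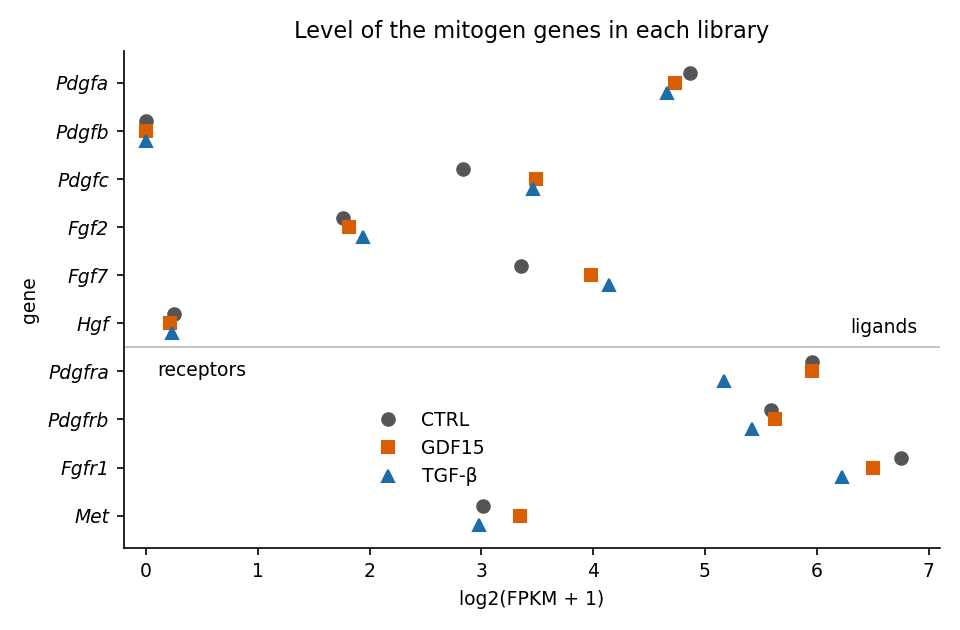
Level of each mitogen gene on the log2(FPKM + 1) scale (horizontal axis) in the CTRL, GDF15 and TGF-β libraries, 1 point per library, ligands above the line and receptors under it. The receptors *Fgfr1*, *Pdgfra* and *Pdgfrb* stood highest, *Pdgfb* was listed at 0 in all 3 libraries and *Hgf* at under 0.2 FPKM.

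Among the PDGF ligands, *Pdgfa* was the most abundant transcript in every library. It encodes the A chain, lies on the minus strand of chromosome 5 (138976014 to 138997370, GRCm38) and was at 28.2 FPKM in CTRL, 25.6 with GDF15 and 24.3 with TGF-β. The differences from CTRL were -0.13 and -0.20, both smaller than or equal to the local spreads (0.22 and 0.20). Of its exons, 813 bases are shared with the antisense gene 6330403L08Rik, and whether reads were counted by strand is not given in the sources used here.

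*Pdgfb*, which encodes the B chain (chromosome 15, 79995874 to 80014977, minus strand), was listed at 0 in all 3 libraries. A value of 0 in a table of FPKM need not mean that no RNA was present. *Atp6v0c*, for example, a subunit of the proton pump that every cell uses, had a mean of only 0.00137 FPKM in the same table. Therefore, *Pdgfb* is given only as listed, with no fold change.

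*Pdgfc* encodes a ligand that is secreted in a latent form, with a CUB domain that has to be cut off before it can bind the α receptor. It lies on chromosome 3 (81036416 to 81214040, plus strand) and has 1 coding transcript, of 3521 bases in 6 exons. It was at 6.13 FPKM in CTRL, 10.2 with GDF15 and 9.99 with TGF-β, so that both stimulated libraries stood above CTRL and close to each other. The differences from CTRL were 0.65 and 0.62, with local spreads of 0.19 and 0.21. In plain FPKM, without the 1 added, the ratios to CTRL were 1.66-fold (95% counting interval 1.46 to 1.88) and 1.63-fold (1.43 to 1.86) on estimated counts of 377, 729 and 585 fragments. Such intervals cover counting error only. Of the rows of similar level, 2.0% differed more from CTRL with GDF15 and 4.80% with TGF-β. Between the stimulated libraries the difference was -0.02 (local spread 0.15). The exons share 147 bases with the antisense gene Gm16000.

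Because *Pdgfa* was slightly lower and *Pdgfc* higher, the summed FPKM of the 4 PDGF ligands hardly differed, at 34.3 in CTRL, 35.8 with GDF15 and 34.4 with TGF-β, whereas its composition did. *Pdgfc* made up 17.9%, 28.4% and 29.1% of the sum and *Pdgfa* 82.1%, 71.6% and 70.8%. The ratio of *Pdgfa* to *Pdgfc* in FPKM was 4.60, 2.52 and 2.44. On estimated fragments, which do not correct for the greater length of *Pdgfc*, its share was 28%, 41.5% and 42.2%. The remaining ligand, *Pdgfd*, was listed at 0 in CTRL and GDF15 and at 0.0352 FPKM in TGF-β.

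*Pdgfra*, the α receptor and the partner of *Pdgfa* and *Pdgfc*, was the only member past 1.5-fold in the downward direction. It lies on chromosome 5 (75152292 to 75198215, plus strand) and was at 61.3 FPKM in CTRL, 61.3 with GDF15 and 35.0 with TGF-β. As deposited, CTRL and GDF15 thus had the same level, and TGF-β alone was lower. In rank order of all rows the gene was at position 864 in CTRL, 820 with GDF15 and 1649 with TGF-β. The difference of TGF-β from CTRL was -0.79 (local spread 0.20), with 3.0% of the rows of similar level differing more, and the level in CTRL was 1.75-fold that in TGF-β (95% counting interval 1.68 to 1.82, on an estimated 7527 and 4103 fragments). Against GDF15 the difference was -0.79 as well (local spread 0.14), exceeded by 0.20% of the rows of similar level. With the trends by transcript length and GC content removed, TGF-β differed from GDF15 by -0.67, and GDF15 from CTRL by -0.13 (local spread 0.21). Both differences use the same TGF-β library, and since CTRL and GDF15 had the same level, the second is no separate measurement of the first. The exons share 456 bases with the antisense gene Gm42802 and 166 bases with Gm42803, which also lies on the opposite strand. In bulk RNA, fewer cells of a kind and less RNA per cell cannot be told apart.

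*Pdgfrb*, the β receptor (chromosome 18, 61045150 to 61085061, plus strand), was at 47.2 FPKM in CTRL, 48.5 with GDF15 and 41.8 with TGF-β. Its differences from CTRL were 0.04 and -0.17, within the local spreads of the comparisons. The α receptor therefore outnumbered the β receptor in CTRL and GDF15 (FPKM ratio 1.3 and 1.26) and was outnumbered by it in TGF-β (0.838). The share of *Pdgfra* in the summed FPKM of both was 56.5%, 55.8% and 45.6%, and the sum itself was 109, 110 and 76.9. On estimated fragments, which do not correct for the greater length of *Pdgfra*, its share was 62.3%, 61.6% and 51.5%, so that which receptor was the more abundant in TGF-β depends on the correction for length.

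**Figure D2:**
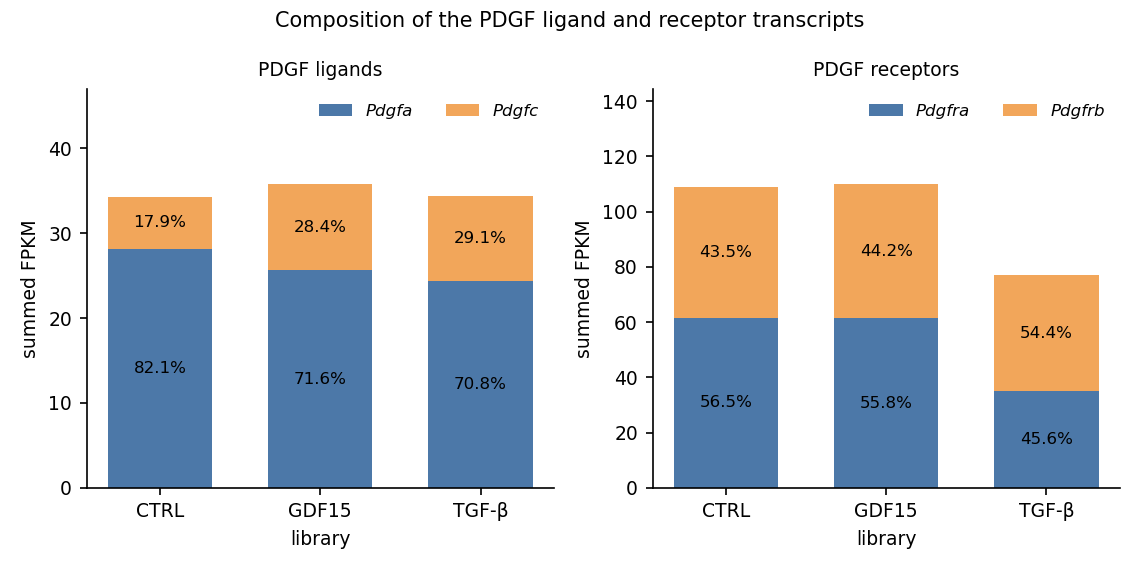
Summed FPKM (vertical axis, from 0) of the PDGF ligands (left) and receptors (right) in each library, with the share of each gene printed in its segment and ligands at or near 0 left out. The ligand sum stayed between 34.3 and 35.8 while the *Pdgfc* share was larger in both stimulated libraries, and the receptor sum was 76.9 in TGF-β against 109 in CTRL.

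Among the FGF ligands, *Fgf7* differed in the same way as *Pdgfc*. It lies on chromosome 2 (126034658 to 126091185, plus strand) and was at 9.26 FPKM in CTRL, 14.8 with GDF15 and 16.6 with TGF-β, with CTRL lowest and TGF-β highest. The differences from CTRL were 0.62 and 0.78 (local spreads 0.22 and 0.19), exceeded by 1.40% and 1.60% of the rows of similar level. The ratios to CTRL in plain FPKM were 1.60-fold (95% counting interval 1.42 to 1.81) and 1.79-fold (1.59 to 2.03). The difference between TGF-β and GDF15 was 0.15, about the local spread of 0.16. In rank among all rows, *Fgf7* was at position 5723 in CTRL, 4035 with GDF15 and 3626 with TGF-β. With the trends by transcript length and GC content removed, the difference with GDF15 was 0.54, under 1.5-fold, whereas that with TGF-β was 0.74. An overlapping protein-coding gene on the opposite strand, *Fam227b*, shares no exon bases with it.

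*Fgf2*, basic FGF, which lacks a classical secretion signal, lies on chromosome 3 (37348346 to 37410108, plus strand) and was at 2.39, 2.52 and 2.85 FPKM in CTRL, GDF15 and TGF-β. The differences from CTRL were 0.05 and 0.18, and the 95% counting interval of the fold with TGF-β (1.19) was 1.0 to 1.42. Its exons share 640 bases with *Nudt6* on the opposite strand, itself at 3.44, 3.53 and 4.84 FPKM, and without the strand setting the reads of these 640 bases cannot be assigned to either gene. Its exons also share 255 bases with Gm43439 on the same strand. The ratio of *Fgf7* to *Fgf2* was 3.87 in CTRL, 5.88 with GDF15 and 5.82 with TGF-β. *Fgf10*, the ligand closest to *Fgf7* in sequence and receptor use, was at 2.84, 3.09 and 2.78 FPKM, and the ratio of *Fgf7* to it was 3.26, 4.79 and 5.96. *Fgf10* was the only one of 16 other secreted FGF ligands to average 1 FPKM or more, and 10 of them were listed at 0 in all 3 libraries.

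*Fgfr1* was the most abundant of the 10 genes in every library. This receptor gene (chromosome 8, 25513654 to 25575718, plus strand) was at 107 FPKM in CTRL, 89.7 with GDF15 and 73.7 with TGF-β, a descending order in which both stimulated libraries were under CTRL. The difference with GDF15 was -0.25, equal to the local spread (0.25). With TGF-β it was -0.53, past the local spread of 0.25 and short of 1.5-fold, and 10.8% of the rows of similar level differed more. In fold terms the level in TGF-β was 0.689 of CTRL (95% counting interval 0.667 to 0.711). *Fgfr1* accounted for 98.3%, 98.4% and 98.0% of the summed FPKM of the 4 FGF receptor kinases. The receptor of FGF7, *Fgfr2*, was at 1.66, 1.41 and 1.45 FPKM, and *Fgfr3* and *Fgfr4* did not exceed 0.0711 and 0.0726. The exons of *Fgfr1* share 164 bases with the antisense gene Gm16159. FPKM of a gene does not separate the IIIb and IIIc forms.

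*Hgf* and its receptor *Met* stood far apart in level. *Hgf* (chromosome 5, 16553495 to 16620152, plus strand) was at 0.188, 0.162 and 0.176 FPKM in CTRL, GDF15 and TGF-β, on an estimated 10.1 to 11.4 fragments per library. Some fragments were thus assigned to the ligand in each library. Its exons share 484 bases with Gm43489 on the same strand, so that these reads cannot be told apart. The 95% counting interval of the fold with GDF15 ran from 0.337 to 2.18 and that with TGF-β from 0.363 to 2.47, and differences within these ranges were not detectable at this depth. *Met* (chromosome 6, 17463800 to 17573980, plus strand) was at 7.1, 9.16 and 6.89 FPKM, with GDF15 highest and the other libraries close to each other. The difference of GDF15 from CTRL was 0.33 (local spread 0.20), and 15.2% of the rows of similar level differed more. The fold was 1.29 (95% counting interval 1.18 to 1.41), short of 1.5-fold. TGF-β stood under GDF15 by -0.37 (local spread 0.15, 6.20% of near rows differing more). With the trends by transcript length and GC content removed, the difference of GDF15 from CTRL was 0.16, under the local spread, and that of TGF-β from GDF15 was -0.23.

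**Figure D3:**
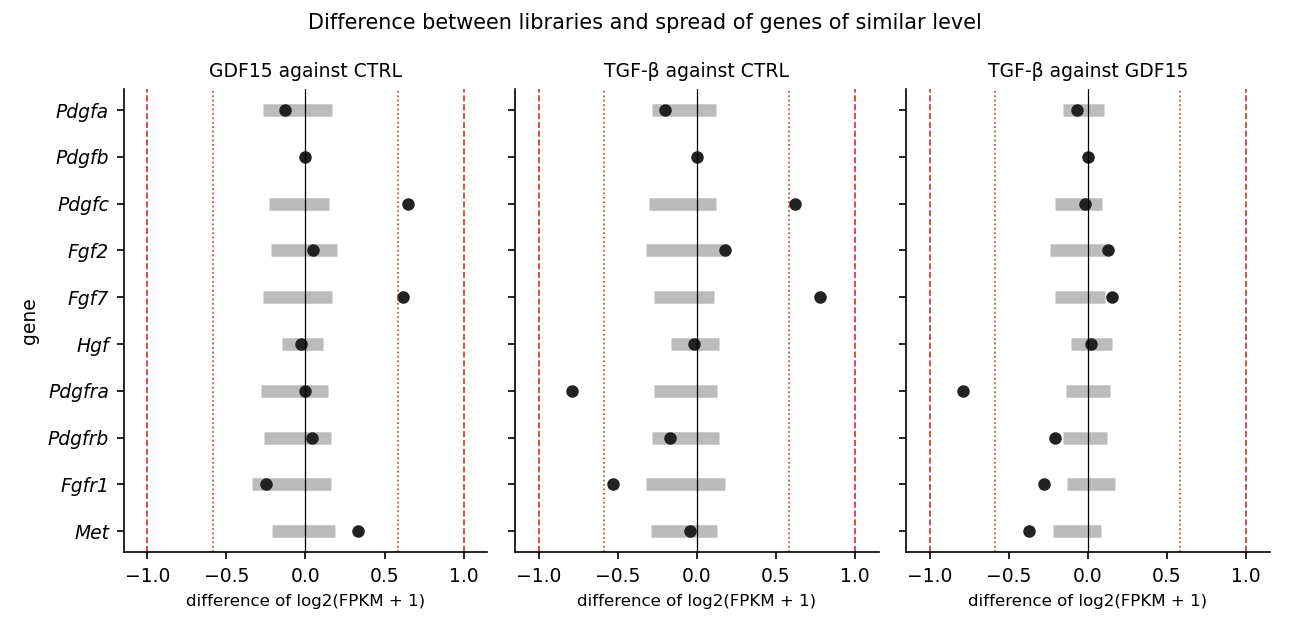
Difference of log2(FPKM + 1) of each mitogen gene (points) in the 3 comparisons, with the local median ± 1 local spread of rows of similar level (grey bars), 1.5-fold (dotted lines) and 2-fold (dashed lines). *Pdgfc* and *Fgf7* passed 1.5-fold against CTRL in both stimulated libraries, and *Pdgfra* passed it with TGF-β, at -0.79 against either of the other libraries.

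Read against the whole table, the counts over the 10 genes were as follows. Because the genes were chosen with earlier results of these data known, the shares of rows are a background and no test. With GDF15, 2 members were over 1.5-fold higher than in CTRL (*Pdgfc* and *Fgf7*), where 0.791% of all rows were, and 0 were over 1.5-fold lower (1.02% of rows). With TGF-β, 2 were over 1.5-fold higher (the same genes, 1.65% of rows) and 1 was lower (*Pdgfra*, 1.95% of rows). Both counts use the same CTRL library. Between TGF-β and GDF15 0 members were higher (0.624% of rows) and 1 was lower (*Pdgfra*, 0.399% of rows). The 2-fold criterion was met by 0 members, and by 0.289%, 0.913% and 0.103% of rows for GDF15 against CTRL, TGF-β against CTRL and TGF-β against GDF15. The direction of the calls over all rows moved with scaling: 123 rows were higher and 158 lower with GDF15 as deposited, and 153 and 108 after scaling to a common upper quartile, and with TGF-β 257 and 303 became 312 and 222. Removal of the trend with expression gave 151 and 106 with GDF15 and 327 and 205 with TGF-β, and removal of the trend with transcript length gave 119 and 59, and 317 and 207. The 2 members higher and the member lower were past 1.5-fold under each of these too. Removal of the trends with both transcript length and GC content gave 126 and 59 with GDF15, and 318 and 189 with TGF-β. There *Fgf7* with GDF15 was at 0.54, under 1.5-fold.

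Of the members 8 averaged 1 FPKM or more, all but *Pdgfb* and *Hgf*. Among the 9226 rows at that level, 2.82%, 5.59% and 1.54% passed 1.5-fold in either direction in the same order of comparisons. By direction, 1.27% of these rows were over 1.5-fold higher and 1.55% lower with GDF15, and 2.54% higher and 3.06% lower with TGF-β. The median difference of these 8 was 0.05 with GDF15 (-0.03 over the 9226 rows), -0.10 with TGF-β (-0.07) and -0.14 between TGF-β and GDF15 (-0.04). With GDF15 5 of them were above CTRL and 3 under it, counting *Pdgfra*, which differed by only -0.0512%. With TGF-β 3 were above and 5 under, and 2 were higher and 6 lower with TGF-β than with GDF15. Over all 10 the medians were 0.02, -0.03 and -0.05, against 0.00 over all rows in each comparison. The summed FPKM of the 10 genes was 269, 262 and 211.

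**Figure D4:**
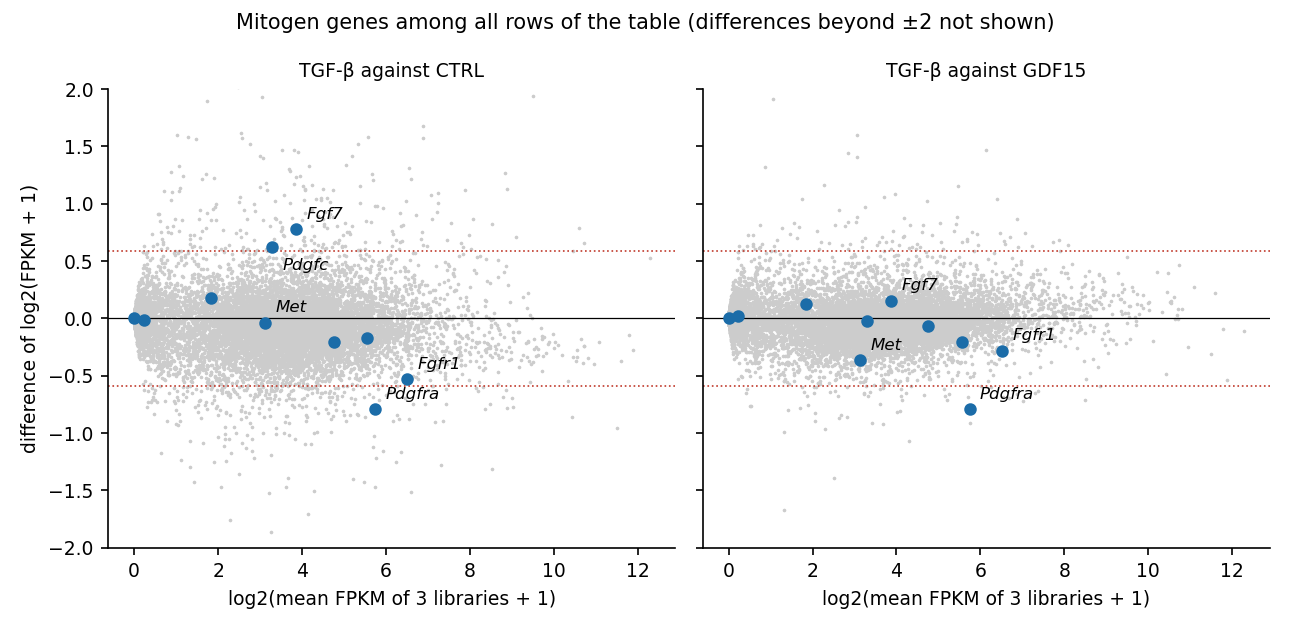
Difference of log2(FPKM + 1) (vertical axis) against log2 of the mean FPKM of the 3 libraries + 1 for all 15554 rows (grey) and the 10 mitogen genes (blue), with dotted lines at 1.5-fold. *Pdgfra* lies at -0.79 in both panels, at the edge of the rows of similar level, whereas *Fgf7* lies at 0.78 against CTRL and 0.15 against GDF15.

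The genes whose differences from CTRL were nearest to those of *Pdgfra*, by Euclidean distance over both differences among 9225 other genes averaging 1 FPKM or more, were *Cxcl12*, *Tnr* and *Dcn*. *Cxcl12*, a chemokine, was at 2.72, 2.80 and 1.21 FPKM (distance 0.0498). *Tnr*, tenascin-R, was at 17.3, 18 and 9.76 (0.0564), and *Dcn*, the matrix proteoglycan decorin, at 419, 408 and 249 (0.0568). Likeness over 3 libraries is a description only. *Dcn* is also one of the 9 fibroblast markers averaging 1 FPKM or more, which went both ways. With TGF-β 4 of the 9 were over 1.5-fold higher (2.54% of rows at that level) and 1 lower (3.06%), and with GDF15 3 were higher (1.27%) and 0 lower (1.55%).

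Of 10 other genes listed for the PDGF system, 9 were in the table and 7 averaged 1 FPKM or more. Among them *Pdgfrl*, a receptor-like gene without a kinase domain, was at 10.1, 17.6 and 20.0 FPKM, differences of 0.74 and 0.92 from CTRL, in the same direction as *Pdgfc*. *Plat*, tissue plasminogen activator, the protease known to activate PDGF-CC, was at 28.9, 25.3 and 17.6 FPKM (-0.18 and -0.68). The ligand and its activating protease thus differed in opposite directions with TGF-β. The related *Plau* (urokinase) was at 5.57, 5.35 and 4.32 FPKM, and the proprotein convertases *Furin* and *Pcsk7* differed by at most 0.12. *Lrp1*, a co-receptor of the β receptor, was at 158, 219 and 213 FPKM (0.47 and 0.43), and *Nrp1*, a co-receptor of several growth factors, at 6.23, 8.97 and 6.84 (0.46 and 0.12), with GDF15 highest as for *Met*. Of the 7, 1 was over 1.5-fold higher with each factor (*Pdgfrl*, where 1.27% and 2.54% of rows at that level were), and 1 was lower with TGF-β (*Plat*, 3.06% of rows).

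In the FGF and HGF lists no other gene at that level passed 1.5-fold on the log2(FPKM + 1) scale. *Fgfrl1*, a decoy receptor without a kinase domain, was at 30.1, 28.6 and 29.0 FPKM, and the FGF-binding protein *Fgfbp3* at 4.16, 3.39 and 2.99. The intracellular *Fgf14* was at 0.733, 1.28 and 1.52, the only one of 4 such factors with a mean of at least 1. Its differences from CTRL were 0.39 and 0.54, which this scale compresses at so low a level. In plain FPKM *Fgf14* was past 1.5-fold over CTRL with both factors. Of 8 other genes of the HGF system only *Cd44*, a co-receptor of MET, reached a mean of 1 FPKM (45.6, 46.6 and 47.7). The HGF activators *Hgfac*, *St14* and *Hpn* and the inhibitors *Spint1* and *Spint2* did not exceed 0.295 FPKM in any library.

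Downstream of these receptors, 31 of 33 listed relay genes (adaptors, Ras, MAP kinase and PI3 kinase components) were in the table, and each averaged 1 FPKM or more. With GDF15 0 passed 1.5-fold, with a median of 0.06 (range -0.39 to 0.36). With TGF-β 1 was lower, *Pik3r2*, a regulatory subunit of PI3 kinase (50.7, 43.1 and 33.0 FPKM, -0.60), and the median was -0.02 (range -0.60 to 0.39). This 1 of 31 is near the 3.06% of rows at that level that were lower with TGF-β, and is no result about the relay genes. Of 10 genes that restrain receptor tyrosine kinases, 0 passed with GDF15 (median 0.01) and 2 were lower with TGF-β (median -0.04, against 3.06% of rows). These were *Lrig3* (15.3, 13.7 and 9.01 FPKM, -0.70) and *Errfi1*, a feedback inhibitor of the EGF receptor family (22.1, 17.8 and 13.7 FPKM, -0.65). The receptors and their relay were thus expressed in all 3 libraries. *Pdgfra*, the member with the largest difference from CTRL, was at -0.79 with TGF-β, past any relay or restraining gene listed (*Lrig3* was at -0.70). In other lists *Pdgfrl* (0.92) and *Ptn* (-1.12) differed more with TGF-β.

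**Figure D5:**
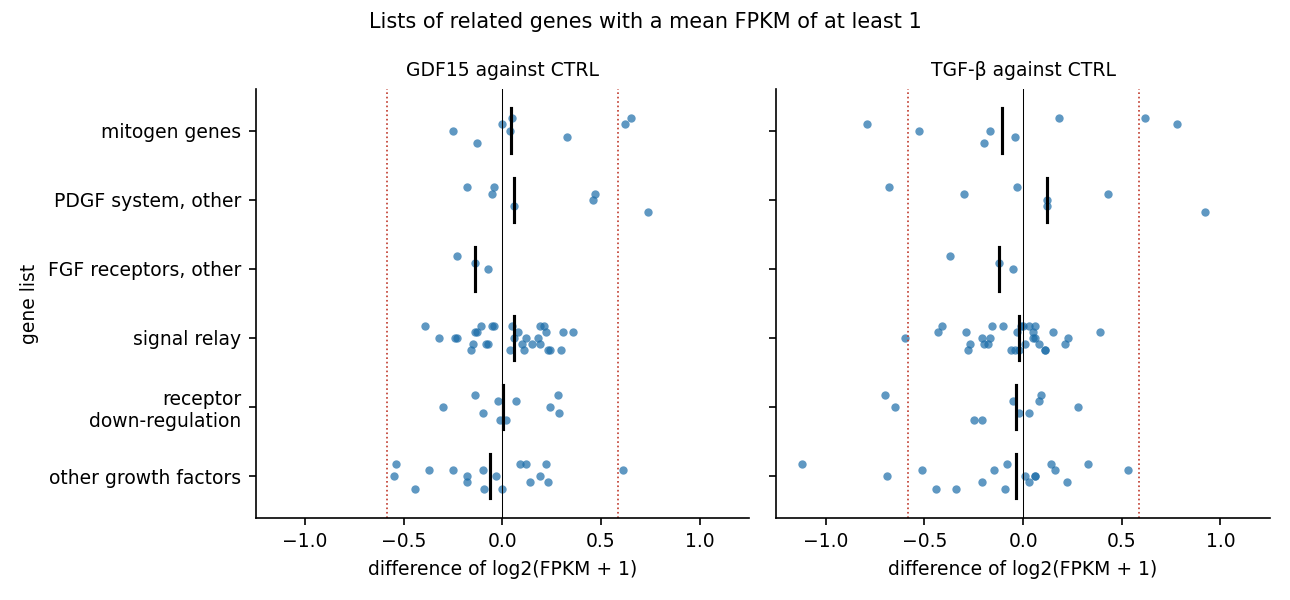
Difference of log2(FPKM + 1) from CTRL (horizontal axis) for each gene averaging 1 FPKM or more in the mitogen list and 5 related lists, with black bars at the medians and dotted lines at 1.5-fold. Most genes lie between the dotted lines, and the medians of the signal relay list are 0.06 with GDF15 and -0.02 with TGF-β.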

How the data were processed

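RNA of NIH3T3 cells was analysed in 3 libraries, each from 3 RNA samples pooled within a treatment. The authors prepared stranded mRNA libraries, sequenced 50 bases in single-end mode, calculated FPKM and restricted the table to UniProt-reviewed protein-coding genes. The submitters' processing notes name TopHat 1.3.2, Bowtie 0.12.9, Cufflinks 2.0.2 and mm10; the annotation and the strand setting are not given in the sources used here. The deposited FPKM entered the analysis without further normalization. Columns were assigned to treatments by the treatment in their names.

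The pseudocount was 1. The local spread is the median absolute deviation, multiplied by 1.4826. Depth was estimated from 4849 genes with a single coding transcript, whose FPKM multiplied by transcript length less 200 bases cluster at whole fragments; the fragments of genes with several transcripts rest on the longest coding one and are approximate. Intervals are exact, at 95%, and cover counting error only. Positions and lengths were taken from GENCODE M21 (GRCm38), not necessarily the annotation behind the FPKM, in which 15463 rows had an entry (14713 under the same symbol, 750 under a newer one). Calculations used scipy 1.17.1, pandas 2.3.3 and numpy 2.4.6 under Python 3.11.15, plots used matplotlib 3.10.9, and the scripts were tested on simulated data.

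The genes named are the 10 members, genes of the PDGF, FGF and HGF lists with a mean FPKM of at least 1, genes of the relay, restraining and other growth factor lists past 1.5-fold, the 3 genes nearest to *Pdgfra*, the marker lists and 5 known TGF-β target genes. *Atp6v0c* and the low genes named beside a receptor or activator were chosen after their values were seen. The members and lists were chosen with earlier results of these data known. *Pcsk6*, *Flrt1*, *Flrt2*, *Flrt3*, *Hras*, *Rasa1* and *Nrg1* had no row under these symbols and were not analysed here, and *Vegfd* was read under its older symbol *Figf*. The alternatives were other pseudocounts, a minimum mean FPKM, upper quartile scaling and removal of trends with expression, transcript length and GC content. The proliferation assay was not analysed here.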

Additional observations from a re-analysis of the deposited data

How the results depend on the processing

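No paired analysis was possible because only 1 pooled library exists for each treatment. No replicate could be left out for the same reason. The members gave 231 differences with other settings, of which 230 lay within 1 local spread of the value reported and 1 moved further. Some of the 231 could not move. A minimum mean FPKM leaves the difference of a gene unchanged, and *Pdgfb* was at 0 in every library. *Hgf* was too low for the trends by length and GC content to be removed from it. Differences past 1.5-fold kept their direction, whereas small ones near 0 could change sign. For example, *Fgf2* with GDF15 went from 0.05 to -0.13 with the trends by length and GC content removed, *Pdgfrb* with GDF15 from 0.04 to -0.02 with the trend by length removed, and with the trend by expression removed *Met* with TGF-β went from -0.04 to 0.04 and *Pdgfc* between TGF-β and GDF15 from -0.02 to 0.04. The difference that moved by more than 1 local spread was *Hgf* with GDF15, at -0.22 without a pseudocount. Of the counts and medians, 71 stayed within a tolerance and 1 moved. A count stayed if it changed by at most 1.5-fold, and a median if it moved by at most the median local spread of the members. A median near 0 could thus change sign and stay: with GDF15 it went from 0.02 to -0.03 with the trend by length removed. The 1 that moved was a count: 1 member instead of 2 was over 1.5-fold with GDF15 when the trends by transcript length and GC content were removed. That alternative was chosen after seeing the data, and *Fgf7* was then at 0.54. The trends by transcript length and GC content were removed only from rows with a mean FPKM of at least 1, and that by expression from all rows. On estimated fragments in place of FPKM, the share of *Pdgfra* among both receptors was 62.3%, 61.6% and 51.5% in CTRL, GDF15 and TGF-β, that of *Pdgfa* among the ligands 72.0%, 58.5% and 57.6%, and that of *Pdgfc* 28%, 41.5% and 42.2%, because the counts are not divided by transcript length. Across the alternatives *Pdgfc* ranged from 0.64 to 0.73 with GDF15 and from 0.62 to 0.71 with TGF-β, *Fgf7* from 0.54 to 0.68 and from 0.74 to 0.87, and *Pdgfra* with TGF-β from -0.81 to -0.72. Between TGF-β and GDF15 *Pdgfra* ranged from -0.81 to -0.67. *Met* with GDF15 ranged from 0.16 to 0.38. Depth limits *Hgf*, and with 1 library per treatment the variation between cultures is unknown.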

Other observations

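Of other growth factors and their receptors, 26 listed genes were in the table and 18 averaged 1 FPKM or more. With GDF15 1 was over 1.5-fold higher, *Gas6*, the ligand of the receptor kinase AXL (1.36, 2.61 and 2.41 FPKM in CTRL, GDF15 and TGF-β), and 0 were lower, where 1.27% of all rows at that level were higher and 1.55% lower. With TGF-β 0 were higher on the log2(FPKM + 1) scale (*Gas6* was at 0.53) and 2 were lower, where 2.54% and 3.06% were. In plain FPKM *Gas6* was past 1.5-fold with TGF-β too. Counts this small in a list of 18 say nothing about the list. *Ptn*, the heparin-binding growth factor pleiotrophin, was at 71.0, 48.4 and 32.1 FPKM (-0.54 with GDF15 and -1.12 with TGF-β). On the log2(FPKM + 1) scale it was the only gene past 2-fold among these and the PDGF, FGF, HGF, relay and restraining lists at that level. In plain FPKM *Fgf14* was past 2-fold with TGF-β too (0.733 in CTRL and 1.52 in TGF-β). *Vegfb* was at 56.9, 38.5 and 35.0 FPKM (-0.55 and -0.69). The medians of the 18 genes were -0.06 with GDF15 and -0.04 with TGF-β. All of these differences rest on 1 library per treatment.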
